A study of Homo sapiens with 12 samples.

Results

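Transcripts of 8 endoderm genes, FOXA1, FOXA2, FOXA3, HNF4A, AFP, TTR, APOA2 and CST1, were followed through the differentiation of human embryonic stem cells toward blood, to ask whether sorted mesodermal, endothelial and blood populations carry them. The 8 genes were chosen by symbol from the 56593 symbols of the expression table, with earlier results on their levels in these libraries known, so their levels are given as a description and without tests. All 8 were found, each on a single line of the table.

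Gene expression was measured by RNA-seq of total RNA from H1, an established human embryonic stem cell line, and from cells sorted out of differentiating H1 cultures, with 3 libraries per population and 12 in all. The undifferentiated H1 cells were the starting point. The other 3 populations came from cultures held in Custom mTeSR1 medium, first with activin A and BMP4 and then with VEGF and bFGF: APLNR+ cells, which carry the apelin receptor and stand for mesoderm, were collected at day 2, CD31+CD34+ cells, the hemogenic endothelial progenitors, at day 5, and CD43+ cells, the hematopoietic progenitors, at day 8. All of the cells came from 1 line, and none of the populations was sorted on a surface protein of endoderm. The labels do not say whether the libraries of a population came from separate cultures, so a p value here measures the spread between these libraries, which may be technical.

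Definitive endoderm, the layer that forms gut, liver and lung, arises from the same primitive streak as mesoderm, and activin signaling is the usual means of obtaining it from stem cells in culture. In that layer the FOXA proteins open chromatin and act with HNF4A and GATA factors on genes for secreted plasma proteins in fetal liver. The visceral endoderm of the yolk sac, a separate tissue that lies against the first blood islands, uses much of the same set and secretes alpha-fetoprotein, transthyretin and apolipoproteins.

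Levels are given in FPKM, that is fragments per length of transcript and per library size, so they can be set side by side between genes. Total read counts are not held by such a table and absolute depth is unknown. Relative depth was estimated from the most common ratio of low values to those of CD43+ replicate 3. In the other libraries that ratio rested on between 29 and 151 genes, so the estimate is rough. It ran from 0.551 to 1.27, and by it replicate 1 was the shallowest library of each population. An FPKM of exactly 0 may be a failed estimate in this table, since EEF1A1, a translation factor gene used by every cell, was listed at 0 in 6 libraries and at 1839 FPKM or more in the other 6. Each sorting marker was higher in its own population than at the stage before. APLNR averaged 383 FPKM in APLNR+ cells against 0.528 in H1. For CD31+CD34+ cells, CD34 averaged 47.7 FPKM against 0.981 at day 2, and PECAM1, which encodes CD31, 55.2 against 0.0997. SPN, which encodes CD43, averaged 75.5 FPKM in CD43+ cells against 3.70 at day 5. The markers did not separate all of the stages. APLNR was still at 403 FPKM at day 5. At day 8 PECAM1 was higher, at 95.9 FPKM, and CD34 remained at 22.2.

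The promoter of APOA2 is shown because it held a sequence bound by the FOXA proteins, whose genes are followed here. It is the 250 bases before the transcription start in RefSeq on GRCh38.p14, chr1:161223629-161223878, read 5′ to 3′ on the minus strand, that of the gene. Capitals mark GTAAACA, the reverse complement of the FOXA core TGTTTAC, at bases -42 to -36.
APOA2: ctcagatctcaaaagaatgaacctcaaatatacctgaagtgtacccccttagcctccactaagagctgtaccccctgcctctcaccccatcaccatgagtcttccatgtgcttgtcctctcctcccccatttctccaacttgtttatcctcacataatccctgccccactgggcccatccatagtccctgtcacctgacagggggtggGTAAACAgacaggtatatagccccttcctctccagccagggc
Both strands were searched for each motif. The FOXA core stood in 2.98% of 35116 RefSeq promoters of that length. FOXA1, FOXA3, HNF4A and AFP also had an entry, with 5 of 8 genes matched, and these windows held neither that core nor CAAAGTCCA, an HNF4 site found in 0.325% of promoters, which says only that those letters are missing there. A match is a stretch of letters, and binding was not measured in these cells.

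The 8 genes did not move as a block. At a mean of at least 1 FPKM, 2 of them were present in H1 (FOXA3 and AFP), 3 in APLNR+ cells (FOXA3, APOA2 and CST1), 5 in CD31+CD34+ cells (FOXA3, HNF4A, AFP, APOA2 and CST1) and 3 in CD43+ cells (TTR, APOA2 and CST1). The highest mean fell in H1 for 2 genes, in CD31+CD34+ cells for 4 and in CD43+ cells for 2, and for none in APLNR+ cells. Of all protein-coding genes 58.9% reached that level in H1, 58.6% in APLNR+ cells, 58.1% in the CD31+CD34+ cells and 57.3% in CD43+ cells. The 5 of 8 is near that share and is not read as a result. AFP in APLNR+ cells, at 0.990 FPKM, and FOXA2 in CD31+CD34+ cells, at 0.899, lay under the level, so the counts depend on it. For scale, the median protein-coding gene stood at 2.45 FPKM in H1, 2.49 in APLNR+ cells, 2.22 in the CD31+CD34+ cells and 2.13 in CD43+ cells. In bulk RNA of this kind, a few cells with a high level and many cells with a low level cannot be told apart.

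**Figure D1:**
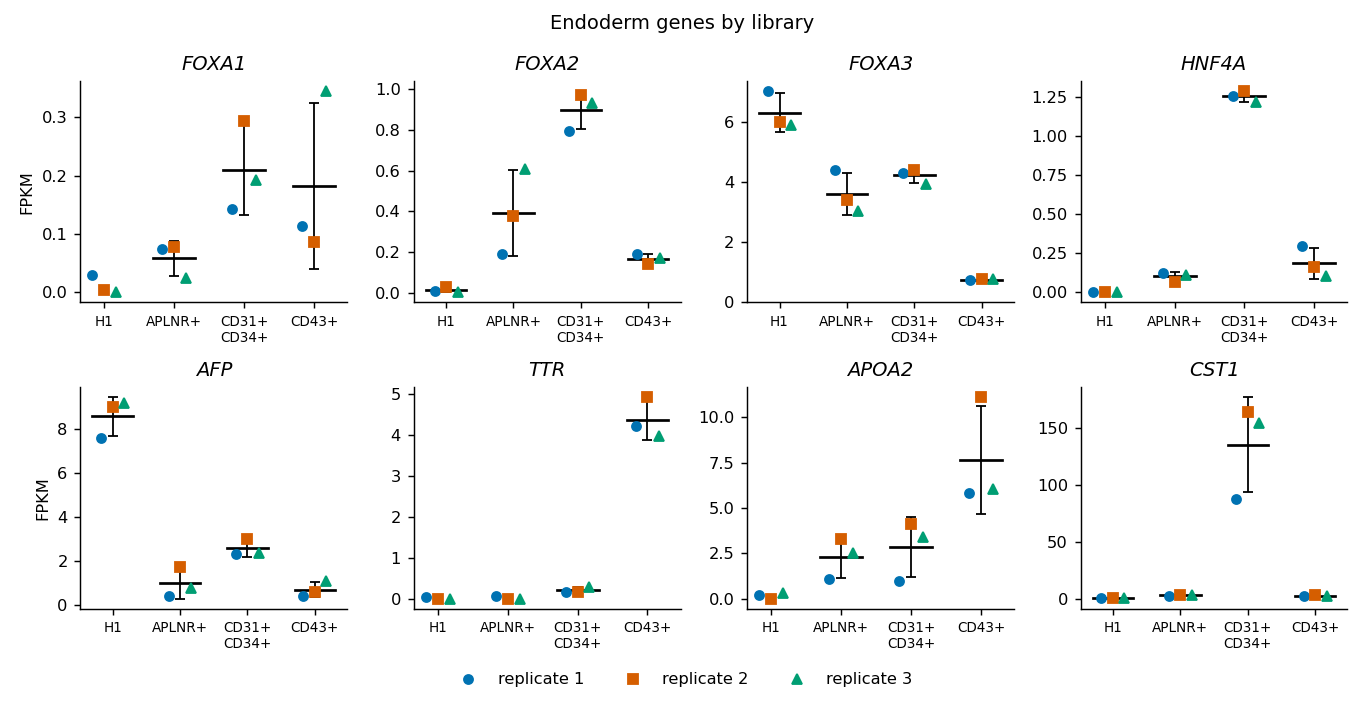
FPKM of the 8 endoderm genes in each of the 12 libraries, by population on the x axis and with a separate linear y axis per gene. Points are libraries, and horizontal lines and error bars give mean and SD of 3 libraries where none is listed at 0. FOXA3 and AFP are highest in H1, HNF4A and CST1 peak in CD31+CD34+ cells, and TTR is near 0 until the CD43+ stage.

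FOXA1 and FOXA2, the pioneer factors of definitive endoderm, stayed below 1 FPKM in every library. FOXA1 read 0.0290, 0.00379 and 0 FPKM in the H1 replicates 1 to 3, 0.0738, 0.0772 and 0.0244 in APLNR+ cells, 0.143, 0.294 and 0.192 in the CD31+CD34+ cells and 0.114, 0.0863 and 0.345 in CD43+ cells. The CD31+CD34+ and CD43+ libraries overlapped, and each of them was above every H1 and APLNR+ library. A short end of FOXA1 overlaps TTC6 on the opposite strand in the GENCODE models, and TTC6 itself did not exceed 0.366 FPKM in any library.

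FOXA2, needed for the node, the floor plate and the endoderm, was higher than FOXA1 from day 2 to day 5, still at low levels. It read 0.00749, 0.0276 and 0.00437 FPKM in H1, 0.189, 0.379 and 0.607 in APLNR+ cells, 0.795, 0.971 and 0.932 in the CD31+CD34+ cells and 0.189, 0.140 and 0.170 in CD43+ cells. Each CD31+CD34+ library was above each library of the other populations, while the highest CD43+ value lay just under the lowest APLNR+ value. The mean in CD31+CD34+ cells was 0.899 ± 0.0924 FPKM (SD, n = 3), which is 2.30 times that in APLNR+ cells and 5.41 times that in CD43+ cells. The model AL121722.1 overlaps FOXA2 on the same strand and shares 22 of its 2552 stretches of 50 bases, so a small part of its reads could have been split.

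FOXA3, the member of the family kept highest in adult liver, behaved unlike FOXA1 and FOXA2. Its values were 7.05, 6.01 and 5.89 FPKM in H1, 4.40, 3.40 and 3.03 in APLNR+ cells, 4.32, 4.42 and 3.95 in the CD31+CD34+ cells and 0.733, 0.772 and 0.766 in CD43+ cells. It was thus already present in the H1 libraries, the APLNR+ and CD31+CD34+ libraries overlapped, and every CD43+ library was lower than every other library. The mean went from 4.23 ± 0.247 FPKM in CD31+CD34+ cells to 0.757 ± 0.0212 in CD43+ cells (SD, n = 3), a log2 difference of -1.57 on the log2(FPKM + 1) scale used for all differences here. Of the 14840 genes tested, 508 had a lower difference at that step.

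HNF4A, the nuclear receptor at the center of the hepatocyte network, reached 1 FPKM in 1 population alone. It read 0, 0.00437 and 0.00304 FPKM in H1, 0.126, 0.0687 and 0.110 in APLNR+ cells, 1.26, 1.28 and 1.22 in the CD31+CD34+ cells and 0.295, 0.160 and 0.104 in CD43+ cells. The 3 CD31+CD34+ libraries lay close together, at 1.25 ± 0.0340 FPKM (SD, n = 3), and far above the rest, where APLNR+ and CD43+ values overlapped. That mean was 12.3 times the one in APLNR+ cells and 6.72 times the one in CD43+ cells, yet it is below the median protein-coding gene. HNF4A-AS1 lies inside HNF4A on the opposite strand, and whether strand was used in the quantification is not given in the sources used here.

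Among the secreted products, AFP was highest before differentiation. AFP, which encodes the main plasma protein of the fetus and the classic marker of fetal liver and yolk sac, read 7.56, 8.97 and 9.15 FPKM in H1, 0.427, 1.75 and 0.789 in APLNR+ cells, 2.33, 3.03 and 2.37 in the CD31+CD34+ cells and 0.426, 0.621 and 1.09 in CD43+ cells. Every H1 library exceeded every other library, the CD31+CD34+ libraries formed a second and lower group, and the APLNR+ and CD43+ libraries overlapped. The H1 mean was 8.56 ± 0.869 FPKM and the APLNR+ mean 0.990 ± 0.686 (SD, n = 3), a log2 difference of -2.32, and 119 of the genes tested lay lower at this step. The level in APLNR+ replicate 1 was 0.336 times the mean of replicates 2 and 3, so the APLNR+ mean is loosely known.

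TTR, which encodes the carrier of thyroid hormone and of retinol-binding protein made by liver, yolk sac and choroid plexus, appeared last. It read 0.0478, 0 and 0 FPKM in H1, 0.0625, 0 and 0 in APLNR+ cells, 0.168, 0.158 and 0.290 in the CD31+CD34+ cells and 4.21, 4.92 and 3.97 in CD43+ cells. The CD43+ libraries were all above 3 FPKM while no other library reached 0.3. Their mean of 4.37 ± 0.496 FPKM (SD, n = 3) was 21.3 times that of CD31+CD34+ cells. The log2 difference was 2.15, which 171 of the genes tested exceeded. TTR counted among the genes tested only through its CD43+ libraries, so that rank is not read as a result.

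APOA2, which encodes the second most abundant protein of high-density lipoprotein, had its highest level in CD43+ cells too. It read 0.182, 0 and 0.330 FPKM in H1, 1.06, 3.29 and 2.50 in APLNR+ cells, 0.974, 4.11 and 3.41 in the CD31+CD34+ cells and 5.82, 11.1 and 6.07 in CD43+ cells. The APLNR+ and CD31+CD34+ libraries overlapped, all of them were above H1, and all were below the CD43+ libraries, whose mean was 7.67 ± 2.99 FPKM (SD, n = 3). Replicate 1 stood at 0.366 times the mean of replicates 2 and 3 in APLNR+ cells, at 0.259 times in the CD31+CD34+ cells and at 0.677 times in CD43+ cells, and at 1.10 times in H1. By the rough estimate of depth, replicate 1 was also the shallowest library of each population, and the part of depth in this spread was not tested.

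CST1, which encodes cystatin SN, a secreted inhibitor of cysteine proteases best known from saliva, gave by far the largest values of the 8. It read 0.888, 0.278 and 0.338 FPKM in H1, 2.61, 3.37 and 3.02 in APLNR+ cells, 88.0, 165 and 154 in the CD31+CD34+ cells and 2.57, 3.49 and 2.00 in CD43+ cells. The CD31+CD34+ libraries were all above 80 FPKM and the other 9 below 4, with the APLNR+ and CD43+ libraries overlapping. At 136 ± 41.7 FPKM (SD, n = 3) CST1 was above 97.7% of 19480 protein-coding genes in CD31+CD34+ cells. That mean was 45.2 times the one in APLNR+ cells, a log2 difference of 5.05 that 22 of the genes tested exceeded. It was 50.5 times the one in CD43+ cells, a log2 difference of -5.18 at that step, with 3 of the genes tested lower. Both differences use the same CD31+CD34+ libraries, of which replicate 1 stood at 0.551 times the mean of replicates 2 and 3.

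**Figure D2:**
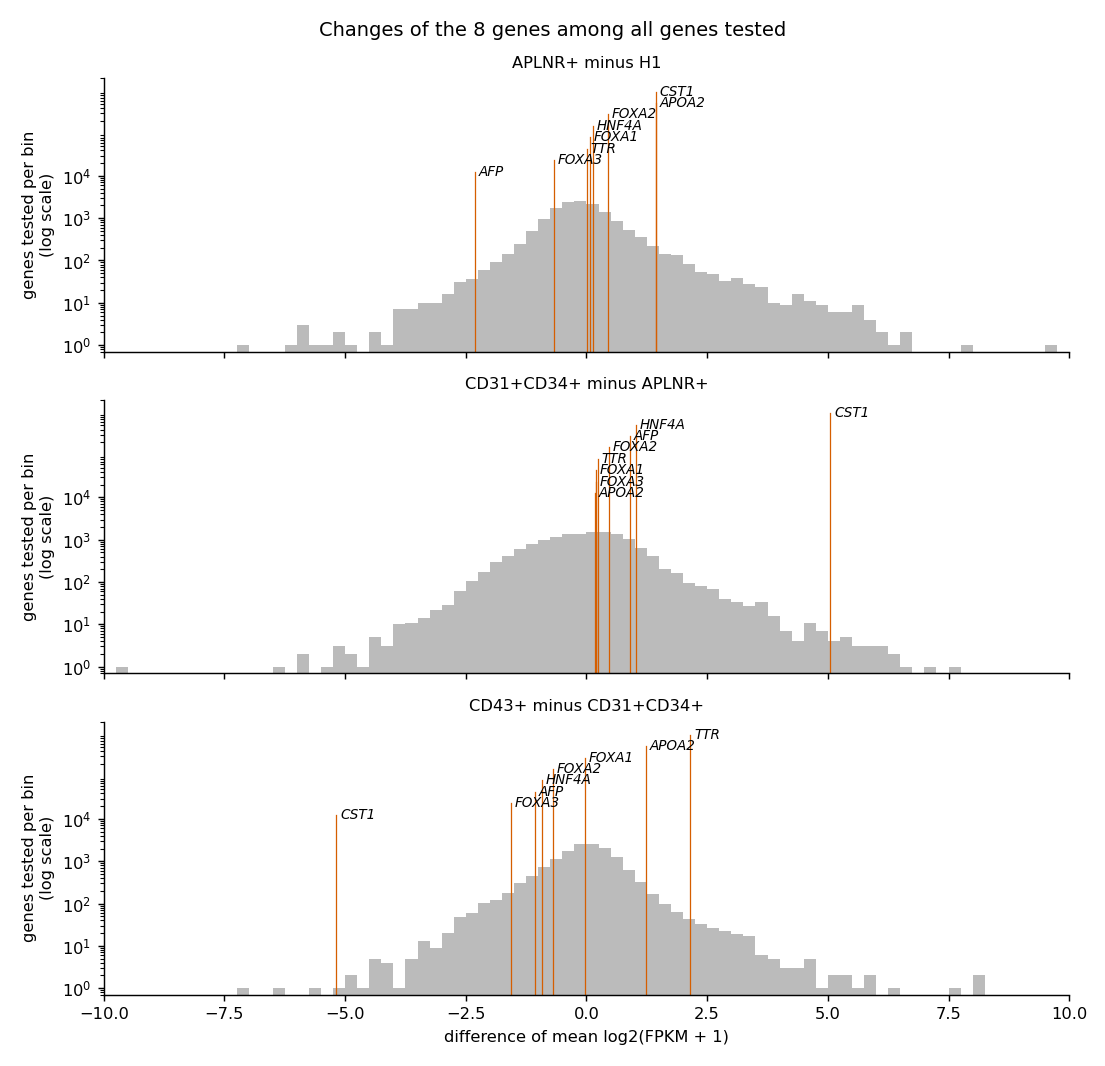
Differences of mean log2(FPKM + 1) at the 3 consecutive steps, for the 14840 genes tested (gray histogram, count per bin on a log scale) and for the 8 endoderm genes (orange lines, whose height carries no value). FOXA1 and FOXA2 did not pass the filter on low levels and are drawn for position only. CST1 lies far out at the last 2 steps, at 5.05 and -5.18, while the other 7 genes stay between -2.32 and 2.15.

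The plot of differences sets the 8 genes among all genes tested. A gene was tested where it reached 1 FPKM in at least 3 libraries, and 6 of the 8 did, HNF4A only through its CD31+CD34+ libraries and TTR only through its CD43+ libraries, so no count over the 6 is read as a result. From H1 to APLNR+ cells the log2 differences were 0.07 for FOXA1, 0.45 for FOXA2, -0.67 for FOXA3, 0.14 for HNF4A, -2.32 for AFP, 0.01 for TTR, 1.43 for APOA2 and 1.43 for CST1, beside a median of -0.12 over all genes tested. TTR, listed at 0 in most of these libraries, turned to -0.02 without APLNR+ replicate 1 and to -0.0045 without H1 replicate 2 or H1 replicate 3. From APLNR+ to CD31+CD34+ cells they were 0.19 for FOXA1, 0.46 for FOXA2, 0.19 for FOXA3, 1.03 for HNF4A, 0.89 for AFP, 0.24 for TTR, 0.18 for APOA2 and 5.05 for CST1, beside a median of -0.01. That of APOA2 was -0.13 without APLNR+ replicate 1 and -0.09 without CD31+CD34+ replicate 2. From CD31+CD34+ to CD43+ cells they were -0.04 for FOXA1, -0.70 for FOXA2, -1.57 for FOXA3, -0.93 for HNF4A, -1.08 for AFP, 2.15 for TTR, 1.24 for APOA2 and -5.18 for CST1, beside a median of -0.005. FOXA1, at -0.04, turned to between 0.0009 and 0.02 when CD43+ replicate 1, CD43+ replicate 2 or CD31+CD34+ replicate 2 was left out.

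CST1 stands in a cluster of near-identical type 2 cystatin genes, so its neighbors were examined. Of the 823 distinct stretches of 50 bases in its GENCODE transcripts, 194 (23.6%) also occur in CST2, CST4 or CST5, and the estimates of these genes are uncertain to that extent. CST4, which encodes cystatin S, was listed at 0 in the 3 H1 libraries and read 0.494, 0.0987 and 0.214 FPKM in APLNR+ cells, 4.0, 4.21 and 4.20 in the CD31+CD34+ cells and 0.174, 0.541 and 0.175 in CD43+ cells. Each CD31+CD34+ library was above every other library. CST4 passed the filter only through those libraries, so its differences of 2.03 from APLNR+ cells and -2.00 to CD43+ cells are given without a test. CST2 followed at a lower level, with 0.469, 0.759 and 1.08 FPKM in CD31+CD34+ cells and was listed at 0 in every H1 and CD43+ library. CST4 shares 30.2% and CST2 8.30% of its stretches with the other genes of the cluster, so how much of either belongs to CST1 was not tested.

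Cystatins of more distant sequence took other courses. CST3, which encodes cystatin C, the cystatin of most tissues, read 5.85, 4.55 and 4.91 FPKM in APLNR+ cells, 68.0, 62.6 and 53.1 in the CD31+CD34+ cells and 60.8, 70.2 and 53.4 in CD43+ cells. It rose at the step where CST1 was higher (log2 difference 3.35 ± 0.15 SE, limma adjusted p = 2.08e-09), and its difference between CD43+ and CD31+CD34+ cells was 0.00 ± 0.15 (adjusted p = 0.99), where that of CST1 was -5.18. CST7, which encodes cystatin F of blood cells, stayed at or below 0.155 FPKM in the first 3 populations and read 1.75, 2.58 and 1.53 in CD43+ cells, the only ones through which it passed the filter, so its difference of 1.48 is given without a test. CST6 was at most 1.23 FPKM, and CST5, CST8, CST9, CST9L and CST11 averaged at most 0.136 FPKM in any population.

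**Figure D3:**
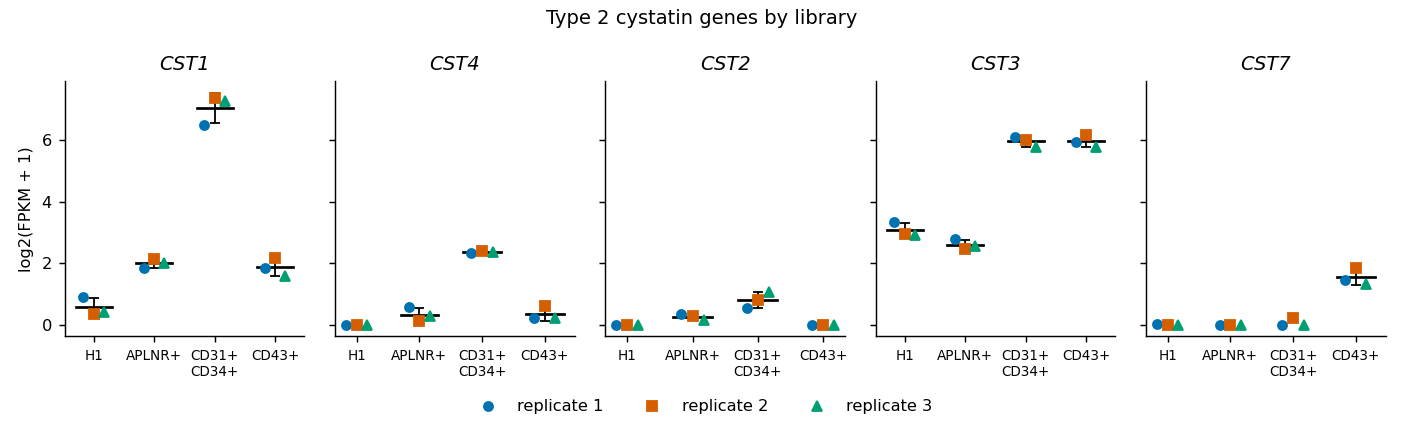
log2(FPKM + 1) of CST1 and of the other type 2 cystatin genes that reached a mean of 0.5 FPKM in a sorted population, by library on a common linear y axis of log2 values. Points are libraries, and lines and error bars give mean and SD of 3 libraries where none is listed at 0. CST1, CST4 and CST2 peak in CD31+CD34+ cells, CST3 stays high in CD43+ cells at a mean of 61.4 FPKM, and CST7 appears in CD43+ cells.

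Endoderm genes outside the 8 were taken from 3 lists written from general knowledge, with earlier results on some of the genes known: early endoderm and streak genes, gut and liver regulators, and proteins secreted by liver and yolk sac. From H1 to APLNR+ cells 13 of the 16 early endoderm and streak genes rose at an adjusted p under 0.05 and at least 2-fold. Of all genes tested 8.30% rose and 7.62% fell. GSC, among the 13, passed the filter only through its APLNR+ libraries, so its call is not read as a result. In this list limma called 0 as lowered, with 0 lowered at an unadjusted p under 0.05. The median difference of the list was 3.42. CER1, which encodes a secreted antagonist of Nodal and BMP made by anterior endoderm, went from a mean of 1.74 FPKM to 2238 (log2 difference 9.68 ± 0.22 SE, limma adjusted p = 1.27e-11), and MIXL1, a homeobox gene of the streak, from 0.205 to 71.3 (5.88 ± 0.20, adjusted p = 2.34e-10). DKK1, which encodes a Wnt antagonist, went from 0.110 to 65.4 FPKM (5.90 ± 0.10, adjusted p = 1.80e-12).

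Most genes of that list fell from day 2 to day 5, the stage at which CST1, FOXA2 and HNF4A were highest. From APLNR+ to CD31+CD34+ cells 10 of the 16 fell and 2 rose, where 17.1% of all genes fell and 12.5% rose, and the median of the list was -1.38. CER1 fell back to 1.83 FPKM (-9.64 ± 0.22, limma adjusted p = 1.33e-11) and MIXL1 to 1.10 FPKM (-5.07 ± 0.20, adjusted p = 8.42e-10). GSC, the organizer homeobox gene, averaged 20.7 and then 0.130 FPKM, and it passed the filter only through its APLNR+ libraries. The 2 that rose were HHEX, a regulator of liver bud and of blood and endothelium, from 0.797 to 19.0 FPKM (3.48 ± 0.14, adjusted p = 1.20e-09), and CXCR4, the SDF-1 receptor of endoderm and endothelium, from 6.06 to 18.0 FPKM (1.42 ± 0.15, adjusted p = 2.89e-06). The list was not gone by day 5. In CD31+CD34+ cells 14 of the 16 averaged at least 1 FPKM, against 15 in APLNR+ cells and 3 in H1. Against H1, 10 were raised in CD31+CD34+ cells and 2 lowered, beside 16.9% and 23.2% of all genes tested. Several genes of the list also act in mesoderm or endothelium, so their levels do not mark endoderm alone.

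From CD31+CD34+ to CD43+ cells 10 of the 16 fell, where 8.79% of all genes fell and 5.58% rose, and limma called 0 as raised, with 0 raised at an unadjusted p under 0.05. SOX17, a factor of both definitive endoderm and hemogenic endothelium, averaged 17.5 FPKM at day 2 and 24.2 at day 5 and then fell to 1.40 (-3.38 ± 0.13, limma adjusted p = 1.53e-09). GATA6 went from 16.3 to 3.05 FPKM (-2.08 ± 0.10, adjusted p = 7.81e-09) and GATA4 from 10.9 to 2.44 (-1.79 ± 0.12, adjusted p = 1.15e-07), both GATA factors of heart and endoderm. FOXA2, FOXA3, HNF4A, AFP and CST1, which were not tested, had differences below 0 at this step, and TTR and APOA2 above 0. The median over all genes tested was -0.005, so a sign alone says little. HNF4A passed the filter only through CD31+CD34+ libraries, TTR only through CD43+ libraries, and FOXA2 did not pass.

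The gut and liver regulators other than the 8 were mostly below the filter, which 3 of 14 passed. PDX1 and NKX2-1, regulators of pancreas and of lung and thyroid, averaged at most 0.036 FPKM in any population. Others below the filter were not absent. SOX9 averaged 1.11 FPKM, CEBPA 0.970 and PROX1 0.798 in CD31+CD34+ cells, each highest there. HNF4G, at 1.03 FPKM, and ONECUT1, at 0.442, were highest in H1. TBX3, a regulator of liver bud that heart and limb mesoderm also use, rose from 0.109 to 20.4 FPKM in APLNR+ cells (4.28 ± 0.10, limma adjusted p = 1.31e-11), averaged 18.8 FPKM at day 5 and fell to 8.48 at day 8 (-1.07 ± 0.10, adjusted p = 2.56e-06). The other 2 genes tested, named here after their values were seen, were NR5A2, which averaged 2.64 FPKM in H1 and 0.144 in APLNR+ cells and passed the filter only through H1, and CDX2, which averaged 0.674 FPKM in APLNR+ cells and 2.36 in CD31+CD34+ cells (1.03 ± 0.18, adjusted p = 2.07e-04). The CDX2 call was lost without APLNR+ replicate 1 and without CD31+CD34+ replicate 3.

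Of the 25 secreted proteins 7 passed the filter. Genes below it took several courses at low levels. APOB (0.742 FPKM), FGA (0.389), FGB (0.364), APOC2 (0.344) and AGT (0.260) had their highest means in CD43+ cells. HPX was highest in CD31+CD34+ cells (0.460), RBP4 in APLNR+ cells (0.233) and AHSG in H1 (0.219). Some products of hepatocytes, named here after their values were seen, were at or near 0. ALB, the gene of serum albumin, did not exceed 0.0990 FPKM in any library, SERPINA1 was listed at 0 in all libraries but the CD43+ ones, where it was at most 0.109, and APOH was listed at 0 in all 12. At the step to CD31+CD34+ cells limma called 2 of the 7 as raised and 0 as lowered, with 1 lowered at an unadjusted p under 0.05, and at the step to CD43+ cells it called 4 as lowered and 0 as raised, with 1 raised at an unadjusted p under 0.05. Over all genes tested 12.5% rose and 17.1% fell at the former step, and 5.58% rose and 8.79% fell at the latter. VTN is 1 of the 2 raised and 1 of the 4 lowered. It passed the filter only through its CD31+CD34+ libraries, so its calls at both steps are not read as results. APOA1, the main protein of high-density lipoprotein and the partner of APOA2, went from 1.40 FPKM at day 2 to 11.0 at day 5 (2.31 ± 0.17, limma adjusted p = 1.80e-07) and to 2.02 at day 8 (-2.01 ± 0.17, adjusted p = 1.21e-06). Its peak was thus 1 stage before that of APOA2. APOC1, an apolipoprotein gene that macrophages also use, fell from 205 to 49.7 FPKM at the last step (-2.03 ± 0.12, adjusted p = 3.44e-08), and APOE averaged from 231 to 418 FPKM in the 4 populations.

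**Figure D4:**
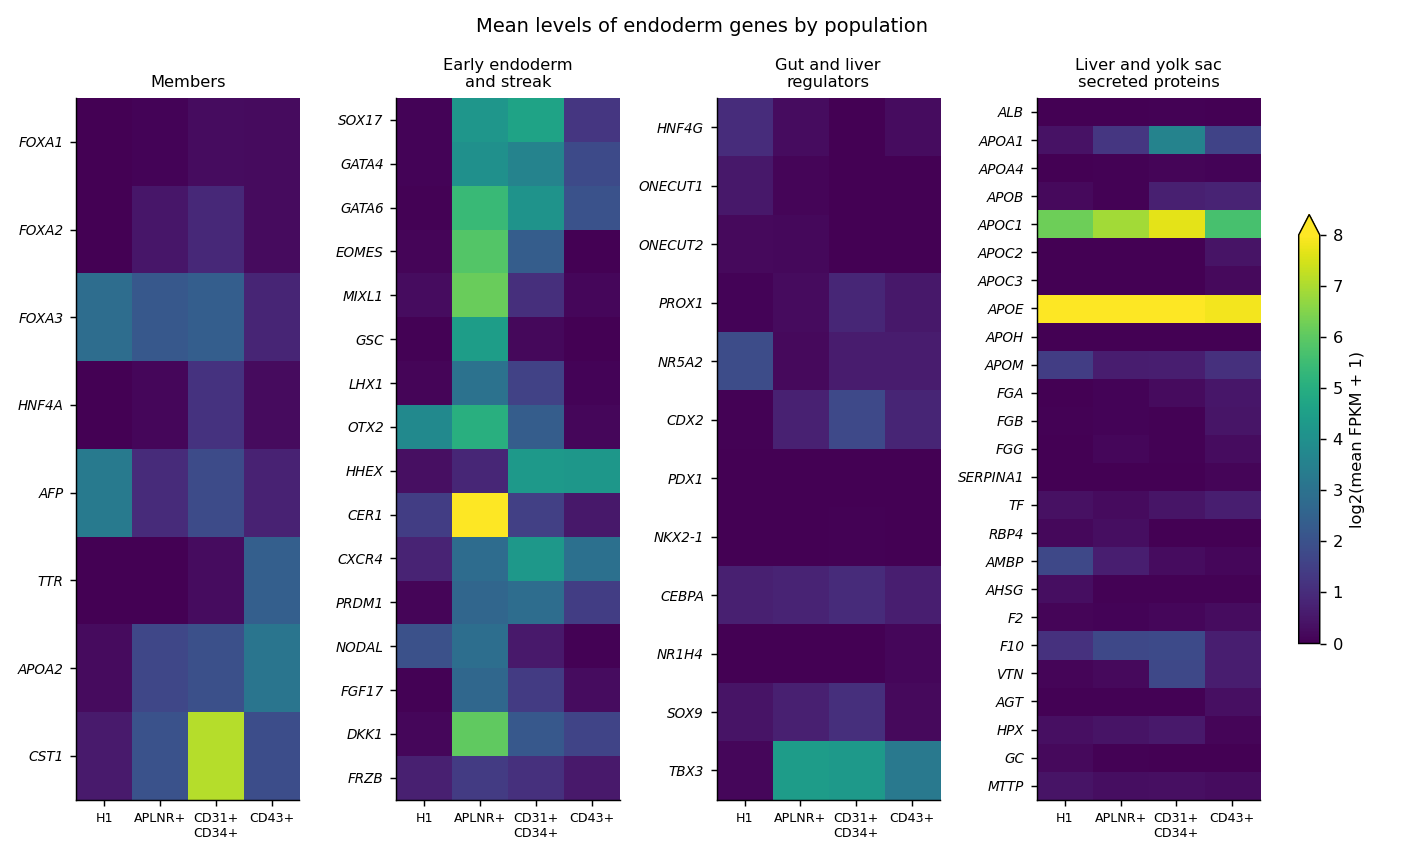
Mean level of the 8 endoderm genes and of genes of the 3 other endoderm lists in each population, as log2(mean FPKM + 1) of 3 libraries on a color scale that ends at 8, which CER1 in APLNR+ cells and APOE in all but CD43+ cells exceed. Most early endoderm and streak genes are brightest in APLNR+ cells, most gut and liver regulators and secreted proteins are dark throughout, and CST1 is brightest in CD31+CD34+ cells.

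Over the 3 lists together, 26 of 55 genes were tested. Of the 26, 4 passed the filter through 1 population alone (GSC, NR5A2, AMBP and VTN), so the counts of calls that include them say less than the others. Against H1, 15 were raised and 4 lowered in CD31+CD34+ cells, beside 16.9% and 23.2% of all genes tested, and 9 were raised and 5 lowered in CD43+ cells, beside 14.6% and 22.5%. The 5 comparisons share their libraries and are not independent.

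Markers of other cell types were set beside these values. All 6 mesoderm markers (T, MESP1, TBX6, HAND1, KDR and PDGFRA) were raised in APLNR+ cells against H1, beside 8.30% of all genes tested. TBX6 passed the filter only through APLNR+ libraries. MESP1 averaged 26.2 FPKM and PDGFRA 18.8 in APLNR+ cells. The 6 epithelial markers (EPCAM, CDH1, KRT8, KRT18, KRT19 and CLDN4) summed to between 598 and 621 FPKM in H1, 1044 and 1172 in APLNR+ cells, 1397 and 1576 in the CD31+CD34+ cells and 219 and 277 in CD43+ cells. This sum mostly follows the keratin genes, whose values were the largest, and is not a measure of epithelial cells. KRT8 averaged 152, 462, 654 and 60.5 FPKM in the order of the stages, KRT18 296, 405, 619 and 153, and KRT19 75.9, 211, 170 and 28.8. The rest of the list was instead highest in H1 and lower at each later stage. EPCAM averaged 45.5 FPKM in H1, 15.1 in APLNR+ cells, 7.85 in the CD31+CD34+ cells and 2.21 in CD43+ cells. In the same order CDH1 averaged 34.4, 12.4, 4.63 and 1.68 FPKM and CLDN4 9.50, 6.16, 5.53 and 1.67. The 5 endothelial markers summed to between 567 and 790 FPKM in CD31+CD34+ cells and the 6 blood markers to between 1164 and 1302 in CD43+ cells. The 7 trophoblast markers summed to between 5.69 and 6.37 FPKM in H1, 41.3 and 54.8 in APLNR+ cells, 22.9 and 30.9 in the CD31+CD34+ cells and 2.79 and 4.37 in CD43+ cells. Of the 4 tested, HAND1, GATA3 and TFAP2A were raised and KRT7 was lowered in APLNR+ cells against H1, with HAND1, which mesoderm also uses, at 44.9 FPKM, GATA3 at 2.70 and TFAP2A at 1.47. CGA, CGB3 and ELF5 averaged at most 0.023 FPKM in any population. The part of other cell types in the levels of the 8 genes was not tested.

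The genes whose levels ran most like each member were listed by Pearson correlation of log2(FPKM + 1) over the 12 libraries, which share 4 populations, so that these values describe the order of the populations more than single libraries. For CST1 they were CREB3L1 (r = 0.997), a regulator of collagen secretion, SERPINH1 (r = 0.995), a collagen chaperone gene, and TFPI2 (r = 0.993), a protease inhibitor gene, and HNF4A itself stood at 0.982. For HNF4A they were ZNF469 (r = 0.994), SIGLEC15 (r = 0.991) and LTBP2 (r = 0.990), a gene of the extracellular matrix. TTR ran with HBE1 (r = 0.999), the embryonic beta-like globin gene, which averaged 525 FPKM in CD43+ cells, with TNFAIP8L2 (r = 0.999) and with CETP (r = 0.998), which encodes a lipid transfer protein of plasma. FOXA3 ran with PLPP2 (r = 0.993), RPL39L (r = 0.991) and EZR (r = 0.990), which encodes a linker of membrane and actin. For AFP the closest genes were GAP43 (r = 0.980), HTR7P1 (r = 0.978) and CEP68 (r = 0.978), and for APOA2 they were PAPSS1 (r = 0.962), STAG3L5P (r = 0.961) and TRG-AS1 (r = 0.958).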

How the data were processed

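FPKM values of the 12 libraries were deposited by the authors as a single table. Sample titles served to assign its columns, and 0 columns were left over. BWA, Bowtie, RSEM and hg19 are named in the submitters' processing notes without role or version, and the annotation, strand setting and any scaling are not given in the sources used here. RNA was extracted with Trizol and libraries were made with an Illumina TruSeq kit. The table held 58365 gene entries beside 1 line of text, which was left out. Of 56593 symbols 345 stood on several lines, none of them in a list used here, and of such lines the one with the highest mean was used.

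Genes with at least 1 FPKM in at least 3 libraries entered the fit. With limma 3.58.1 (R 4.3.3) 1 model of the 4 populations was fitted to log2(FPKM + 1), with eBayes and a trend. P values of each comparison were adjusted by Benjamini-Hochberg over 14840 genes, and calls needed an adjusted p under 0.05 and at least 2-fold. A difference on this scale understates the change of low genes. The lowest p of an exact permutation test with 3 libraries on each side is 0.1. The fit was tested on simulated data. FPKM carry no counts, so no interval for counting error is given, and 3 libraries per population limit the precision.

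The 8 genes and all lists were chosen with earlier results of these data known. Named genes were the 8, the type 2 cystatins, the marker genes, from each endoderm list and consecutive step the 3 largest rises and falls among called genes with a higher mean of at least 5 FPKM, and the 3 genes most correlated with each member that reached 1 FPKM. A gene named outside this rule was chosen after its values were seen, and some genes of the lists are not reported here.

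Equal replicate numbers were checked as pairs: the correlation of deviations was over 0.1 in every pair for CD43+ against CD31+CD34+ cells (0.392, 0.205 and 0.192) and against H1 (0.386, 0.247 and 0.174), and not for the other comparisons. For those other comparisons the replicate 1 pair also exceeded 0.1. It was 0.429 for APLNR+ cells against H1, 0.254 for CD31+CD34+ cells against H1 and 0.196 for CD31+CD34+ against APLNR+ cells. The remaining pairs of those comparisons ran from -0.02 to 0.23. The labels do not say what a number marks. The alternatives tried were a fit without the filter, a pseudocount of 0.1, a replicate block, quantile normalization, upper-quartile scaling, levels of 0.5 and 2 FPKM, leaving out each library, and replicates 2 and 3 alone, which was added after the data were seen. Promoters came from RefSeq on GRCh38.p14, and shared stretches of 50 bases from GENCODE transcripts, both matched by symbol. Python 3.11.15 with numpy 2.4.6, pandas 2.3.3 and matplotlib 3.10.9 read the table and drew the figures.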

Additional observations from a re-analysis of the deposited data

How the results depend on the processing

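With a pseudocount of 0.1 in place of 1, the genes called between APLNR+ cells and H1 went from 2363 to 3632 and those between CD43+ and CD31+CD34+ cells from 2133 to 3605. The endoderm list genes lowered in APLNR+ cells went from 2 to 1 with upper-quartile scaling and with replicates 2 and 3 alone, and ranged from 1 to 2 when each library was left out. The gene lost was AMBP, which was lost without H1 replicate 1 and averaged 2.35 FPKM in H1 and 0.607 in APLNR+ cells. At a level of 0.5 FPKM 5 of the 8 genes were present in CD43+ cells, against 3 at 1 FPKM. The cause of these shifts was not tested. Other counts stayed within 1.5 times their value. CER1, at a log2 difference of -1.05, was lost as lowered from CD31+CD34+ to CD43+ cells without CD31+CD34+ replicate 1, CD43+ replicate 2 or CD43+ replicate 3, and TBX3, at -1.07, with quantile normalization.

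With the replicate block, 2140 genes were called between CD43+ and CD31+CD34+ cells against 2133 without it, and 0 endoderm list genes were raised and 15 lowered, as without it. The replicate block moved none of the counts above by more than 1.5 times. Of 360 alternative values for the 40 differences of the 8 genes, 328 moved by less than 1 SD, 32 moved by more, all of them with a pseudocount of 0.1. A change of sign came in 8 of the 360 values, each with a library left out: 3 for FOXA1 from CD31+CD34+ to CD43+ cells, 3 for TTR from H1 to APLNR+ cells and 2 for APOA2 from APLNR+ to CD31+CD34+ cells, in each case within 1 SD of the value from all libraries. Leaving out 1 of 3 libraries always moves their mean by less than their SD. A shift under 1 SD was therefore largely fixed in advance for such values and does not show robustness. Summing lines with the same symbol gave the same values, since no gene of the lists stands on several lines. Levels under 1 FPKM rest on few reads of unknown number, so differences among FOXA1, FOXA2 and TTR in the early populations are the least certain.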
